A study of Homo sapiens with 2 samples.

Results

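The 9 genes described here, NQO1, HMOX1, GCLM, GCLC, TXNRD1, SLC7A11, SRXN1, OSGIN1 and AKR1C1, are well-known targets of the transcription factor NRF2, and they were taken by name from the 21743 RefSeq genes that had a probe on the arrays. MRC-5 cells, a widely used cell line of fibroblasts from human fetal lung, were transfected either with a control siRNA or with an siRNA against periostin (the POSTN mRNA), and 1 total RNA sample for each siRNA was labelled with Cy3 and hybridized to 1 single-colour Agilent array. The periostin siRNA was used at 10 nM for 48 h. Every culture was of the same line and had received an siRNA, so an untransfected culture does not enter the comparison. With 1 array for each siRNA, a test of the difference could not be made, and p-values are left out. All 9 genes had at least 1 probe, and every one of these probes was well above background on both arrays, as judged by the scanner software, without a saturation or outlier flag.

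NRF2, encoded by NFE2L2, is held at a low level in resting cells by KEAP1, which hands it to a CUL3 ubiquitin ligase for breakdown. Oxidants and electrophiles modify KEAP1, NRF2 then accumulates in the nucleus, pairs with a small MAF protein and binds antioxidant response elements, while BACH1 competes for the same elements as a repressor. The targets supply glutathione, keep thioredoxin and peroxiredoxins reduced, break down haem and detoxify reactive carbonyls and quinones, and in lung fibroblasts this system is known for opposing the oxidative stress that accompanies fibrosis.

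Signals are given after both arrays were scaled to a common 75th percentile of 377, which had been 372 with control siRNA and 383 with periostin siRNA. POSTN had a signal of 2638 with control siRNA, compared with 280 after periostin siRNA (log2 ratio -3.24, spot error 0.20), so the target of the siRNA was lower on the array that carries its name. The fibroblast markers COL1A1, COL1A2, COL3A1, VIM, THY1, PDGFRA, PDGFRB and LUM were each detected above background with either siRNA, with a median log2 ratio of -0.10 over values on both sides of 0, among them PDGFRA at -0.90, COL1A1 at -0.54 and LUM at 0.83. Markers of other cell types were detected in part. Below background on both arrays were CDH1 and KRT5 of epithelium, PECAM1 of endothelium and LAPTM5 and MS4A1 of immune cells. SFTPC (33.8 and 53.3) and SCGB1A1 (104 and 110) of epithelium were dim but above background on both arrays. So were CDH5 (49.5 and 46.5) and VWF (72.1 and 79.8) of endothelium and the immune marker PTPRC (17.6 and 25.1), by their brightest probes. All other probes of PTPRC were below background on both arrays. KDR, CD74 and CD3E exceeded the background on 1 array only. The 7 epithelial markers summed to 3976 with control siRNA and to 5850 after periostin siRNA, mostly from KRT8 and KRT18, and EPCAM, dim on both arrays, was at 34.6 and 135. The summed signal of the 6 immune markers was 1561 and 2506, of which CD68 made up 1528 and 2451, and that of the 4 endothelial markers was 133 and 130. The endothelial sum depends on the probe taken for VWF. Its other probe, printed 10 times, was at 52.1 and 90.1, a log2 ratio of 0.79 ± 0.15 (SD over spots), compared with 0.15 for the brightest. These sums include signals below background. Both arrays were on 1 slide, and the part of these markers in the results below was not tested.

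The antioxidant response element has the core TGACNNNGC, where N is any base. The promoter table of RefSeq (GRCh38.p14), with windows from 250 bases before to 50 bases after each start site, held 8 windows for 7 of the 9 genes; HMOX1 and SLC7A11 had no entry. On either strand, the core was found in 3 of these windows, those of GCLM and both start sites of TXNRD1, against 13.3% of all 35116 windows. The 120 bases before these start sites are shown with the core in capitals, because these are the members whose proximal window carries the element, and that of SLC3A2 is added as the partner of SLC7A11, for which 1 of 3 windows held it. Besides the members, only SLC3A2, ME1 and MAFF were looked at singly. Each had a lower signal after periostin siRNA and a window with the core. No gene outside the members with a higher signal was looked at in this way.
GCLM, chr1:93909431-93909550, minus strand: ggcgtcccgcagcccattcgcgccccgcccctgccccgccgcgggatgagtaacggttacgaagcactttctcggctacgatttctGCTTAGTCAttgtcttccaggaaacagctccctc
TXNRD1, upstream window, chr12:104215659-104215778, plus strand: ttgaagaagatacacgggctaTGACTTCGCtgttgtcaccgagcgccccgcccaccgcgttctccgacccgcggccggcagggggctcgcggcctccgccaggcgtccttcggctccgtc
TXNRD1, downstream window, chr12:104286912-104287031, plus strand: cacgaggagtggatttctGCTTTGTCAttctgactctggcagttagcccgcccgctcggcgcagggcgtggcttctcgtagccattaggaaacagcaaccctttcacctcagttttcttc
SLC3A2, chr11:62881579-62881698, plus strand: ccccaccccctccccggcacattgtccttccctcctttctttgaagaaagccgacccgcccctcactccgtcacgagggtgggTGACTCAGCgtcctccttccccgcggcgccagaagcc
The capitals begin at base -34 of GCLM, at -99 and -102 of the TXNRD1 windows and at -37 of SLC3A2, with 0 as the first transcribed base. Read as the motif they are TGACTAAGC, TGACTTCGC, TGACAAAGC and TGACTCAGC, of which those of GCLM and of the downstream TXNRD1 window lie on the opposite strand. A further match of the upstream TXNRD1 window runs from base -8 across the start site and is not in capitals. These letters describe the sequence, and binding of NRF2 was not measured.

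The 9 genes did not move as 1 block. After periostin siRNA, 6 of the 9 had a log2 ratio below 0, compared with 45.5% of the 16052 genes for which a ratio could be given, and their median was -0.54, compared with 0.06 over all genes. SLC7A11 was the only member lower by more than 3-fold, the threshold of the study, which 2.75% of all genes passed in this direction. TXNRD1 joined it at more than 2-fold, which 6.42% of all genes passed. No member was higher by more than 2-fold, which 7.97% of all genes passed, nor by more than 3-fold, which 3.37% of all genes passed. With only 9 genes, an absence at such shares says little about the members. Without SLC7A11 the median of the remaining 8 genes was -0.30.

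**Figure D1:**
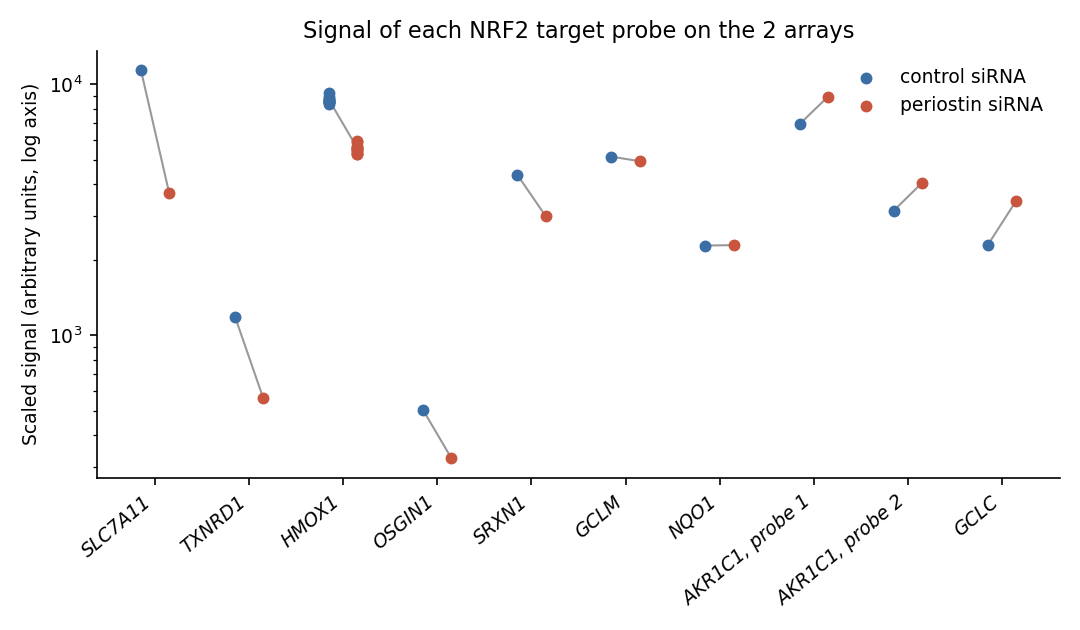
Scaled signal (arbitrary units, log axis) of each spot of the 10 probes of the NRF2 targets with control siRNA and periostin siRNA, with a line joining the means of the arrays. HMOX1 has 10 spots and every other probe 1; the lines slope down for SLC7A11, TXNRD1, HMOX1, OSGIN1 and SRXN1 and up for AKR1C1 and GCLC, and signals of different probes cannot be ranked against each other.

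Among the genes of cystine import and glutathione synthesis, the importer was lower. The catalytic subunit of the synthesis enzyme was higher, and the modifier subunit did not differ beyond its spot error. SLC7A11, which encodes the light chain of the cystine-glutamate exchanger, had a signal of 11371 with control siRNA and of 3689 after knockdown. It was thus 3.08-fold lower (log2 ratio -1.62, propagated spot error 0.20), and 2.59% of all genes had a lower ratio. Among the 1000 genes nearest to it in mean signal, this share was 1.5%. Without scaling between the arrays its log2 ratio was -1.58, just short of 3-fold.

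GCLC, the catalytic subunit of glutamate-cysteine ligase and thus of the rate-limiting enzyme of glutathione synthesis, was at 2291 with control siRNA and at 3425 after knockdown. This was 49.5% higher, with a log2 ratio of 0.58 and a spot error of 0.20, the highest ratio of the 9 members. GCLM, the modifier subunit of the same ligase, was at 5148 and 4938, a log2 ratio of -0.06 with an error of 0.20. The subunits differed by 0.64 in log2 ratio, with a combined spot error of 0.29.

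In the thioredoxin system both members were lower. TXNRD1, the cytosolic thioredoxin reductase, had a signal of 1187 with control siRNA and of 563 after knockdown, 2.11-fold lower at a log2 ratio of -1.08 with an error of 0.20. Of all genes, 5.59% had a lower ratio, and of the 1000 genes nearest in mean signal, 3.5%. This gene has 7 RefSeq transcripts from several start sites, and its only probe is named in the files by the accession of 1 of them. Which of the other transcripts it also detects was not tested. SRXN1, sulfiredoxin, which repairs overoxidized peroxiredoxins, was at 4361 and 2989, 1.46-fold lower with a log2 ratio of -0.54 and an error of 0.20.

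HMOX1, haem oxygenase 1, which opens the haem ring and releases iron and carbon monoxide, was the only member printed 10 times. Its spots ranged from 8308 to 9187 with a median of 8591 with control siRNA, and from 5270 to 5946 with a median of 5554 with periostin siRNA. The spots of the arrays did not overlap, but they repeat 1 probe with 1 RNA sample for each siRNA and are not replicate cultures. The log2 ratio was -0.64 ± 0.06 (SD over 10 spots), a signal 1.55-fold lower, and 12.4% of all genes had a lower ratio. OSGIN1, an oxidative stress-induced growth inhibitor, was at 504 and 324, also 1.55-fold lower, with a log2 ratio of -0.63 and a spot error of 0.20.

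The members that act in quinone and carbonyl detoxification are NQO1 and AKR1C1, and neither was lower beyond its spot error. NQO1, the quinone reductase that is the most widely used readout of NRF2, was at 2279 with control siRNA and at 2288 after knockdown, a log2 ratio of 0.01 with an error of 0.20, and the sign of this ratio turned negative after loess and when arrays were scaled on their medians. AKR1C1, an aldo-keto reductase, was at 6935 and 8903 by its brighter probe and at 3137 and 4044 by the other. The probes gave log2 ratios of 0.36 and 0.37, each with an error of 0.20, that is 1.28-fold and 1.29-fold higher. Its paralog AKR1C3 gave 0.38, with signals of 2050 and 2663. AKR1C genes are close in sequence, no probe was matched to AKR1C2, and the probes may not tell these genes apart.

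**Figure D2:**
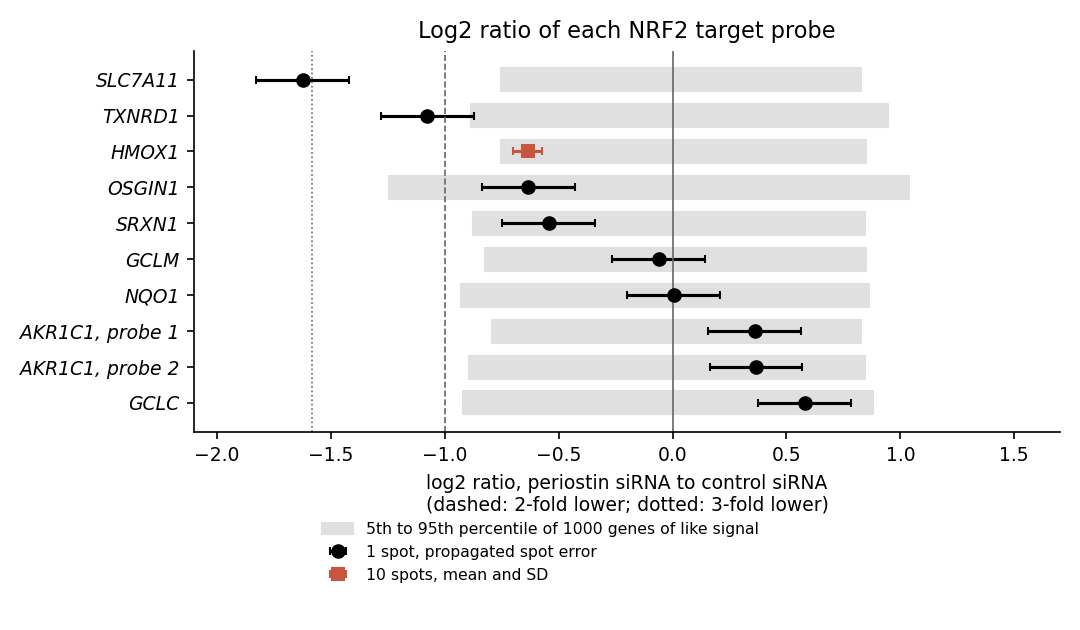
Log2 ratio (periostin over control siRNA) for each probe of the NRF2 targets, as the value and propagated error of 1 spot, or for HMOX1 as the mean and SD over 10 spots; grey bars span the 5th to the 95th percentile of the 1000 genes nearest in mean signal. SLC7A11 at -1.62 and TXNRD1 at -1.08 lie outside their grey bars and the other 7 genes lie within theirs.

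The order of the ratios, from SLC7A11 through TXNRD1, HMOX1, OSGIN1, SRXN1, GCLM, NQO1 and AKR1C1 to GCLC, was not resolved at every step. HMOX1, OSGIN1 and SRXN1 were within their spot errors of each other, as were GCLM and NQO1, and AKR1C1 and GCLC. SLC7A11 and TXNRD1 differed by 0.55 with a combined error of 0.29, and TXNRD1 and HMOX1 by 0.44 with a combined error of 0.21. The propagated error of 0.20 is that of the scanner software for 1 spot on each array. Between replicate spots of the 356 probes printed 10 times in the signal range of the members, the pooled SD of the log2 ratio was 0.06, and different probes of 1 gene in that range, over 1002 genes, disagreed by a median of 0.12 and by 0.46 at the 90th percentile. None of these errors covers the difference between cultures. In bulk RNA a change per cell and a change in the share of cells that express a gene cannot be told apart.

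**Figure D3:**
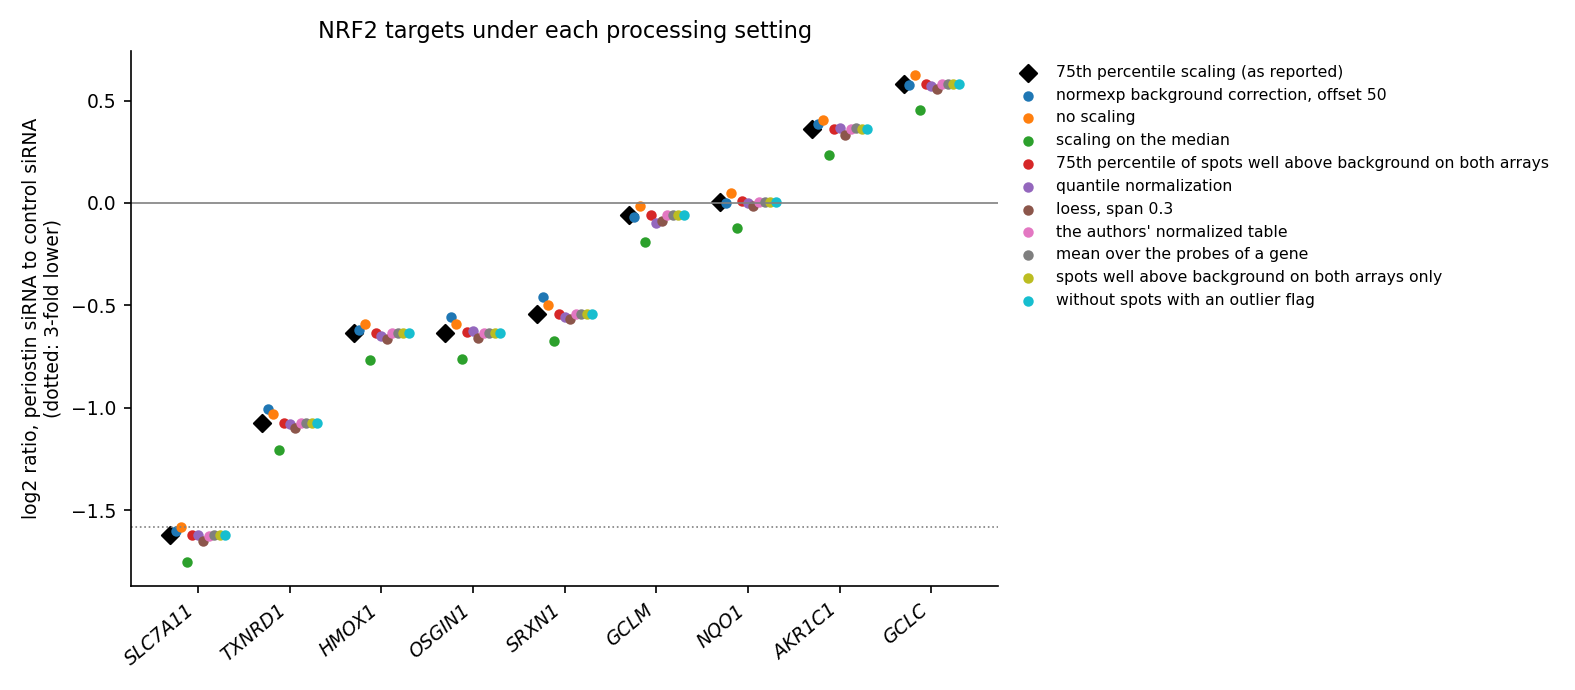
Log2 ratio (periostin over control siRNA) of each NRF2 target under 75th percentile scaling (diamonds) and under 10 alternative settings (coloured points). SLC7A11 stays between -1.75 and -1.58 and GCLC between 0.45 and 0.62, whereas NQO1 lies between -0.12 and 0.05 on both sides of 0.

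The regulators of NRF2 were examined from a list of 12 genes, of which 11 could be measured. Their median log2 ratio was 0.00, and past 2-fold there was 1 lower gene and no higher one. Of all genes, 6.42% were lower and 7.97% higher by this much. The only probe of NFE2L2 was below background on both arrays, with signals of 2.06 and 2.78, so the mRNA of NRF2 itself was not measured. KEAP1 gave 0.07 ± 0.06 (SD over 10 spots), CUL3 0.12, its partner RBX1 -0.19 and the repressor BACH1 0.08, with spot errors of 0.20 for the last 3 and with a change of sign under scaling on the median for KEAP1, CUL3 and BACH1. GSK3B and BTRC belong to a KEAP1-independent route of NRF2 breakdown, and they gave 0.00 ± 0.05 (SD over 10 spots) and 0.66.

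The mRNAs of the small MAF proteins, which NRF2 needs to bind DNA, had ratios below 0, MAFG by less than 2 spot errors. MAFF had a signal of 646 with control siRNA and of 199 after knockdown, a log2 ratio of -1.70 ± 0.09 (SD over 10 spots) or 3.24-fold, though it was -1.46, short of 3-fold, under the normexp background correction. MAFK was at 778 and 473, with a log2 ratio of -0.72. MAFG gave -0.37 and its second probe -0.41, all 3 values from single spots with an error of 0.20. SQSTM1, the autophagy adaptor that binds KEAP1, gave -0.39, and NFE2L1, a relative of NRF2, gave 0.40.

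Further NRF2 targets were taken from a list of 42 genes, of which 38 could be measured, and these were evenly split, with 19 above and 19 below 0 and a median of 0.01. More than 2-fold, 5 were higher and 1 was lower, compared with 7.97% and 6.42% of all genes. The detoxification enzymes had the highest median, 0.40 over 12 genes. Of these, 7 were above and 5 below 0, where 8745 of all 16052 genes were above 0. ALDH3A1, an aldehyde dehydrogenase, was at 85.5 with control siRNA and 779 after knockdown, 9.11-fold higher at a log2 ratio of 3.19, which lay between 2.58 and 3.23 over the 10 settings. Its second probe exceeded the background on the periostin siRNA array only. The related ALDH3A2 was at 936 and 2754, with a log2 ratio of 1.56, and its second probe gave 1.58.

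Of the 14 genes of glutathione use and the thioredoxin system, PRDX6, a peroxiredoxin, was at 38533 and 86471 with a log2 ratio of 1.17, and GSTA4, a glutathione transferase, gave 1.04 ± 0.04 (SD over 10 spots). SLC3A2, the heavy chain that carries the SLC7A11 protein to the cell surface, was at 3296 with control siRNA and at 1639 after knockdown (log2 ratio -1.01). Both chains of the exchanger were thus lower by more than 2-fold, SLC3A2 only just. It fell short of 2-fold under 2 of the 10 settings, where GSTA4 fell short under 1. GSR, glutathione reductase, gave -0.48 by its brighter probe, which stood for the gene, and -1.54 by the other. It was past 2-fold lower, at -1.01, in 1 of the 10 settings. The median of these 14 genes was 0.15.

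The 6 genes of NADPH supply had a median of -0.35, with 5 below 0, compared with 45.5% of all genes. The lowest was ME1, malic enzyme, at -0.97. The 6 genes of iron and haem handling had a median of 0.08, and 1 was more than 2-fold higher, as were 7.97% of all genes. This was the haem transporter SLC48A1 at 1.04. Its second probe gave 0.87, and the gene fell short of 2-fold under 3 of the 10 settings.

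**Figure D4:**
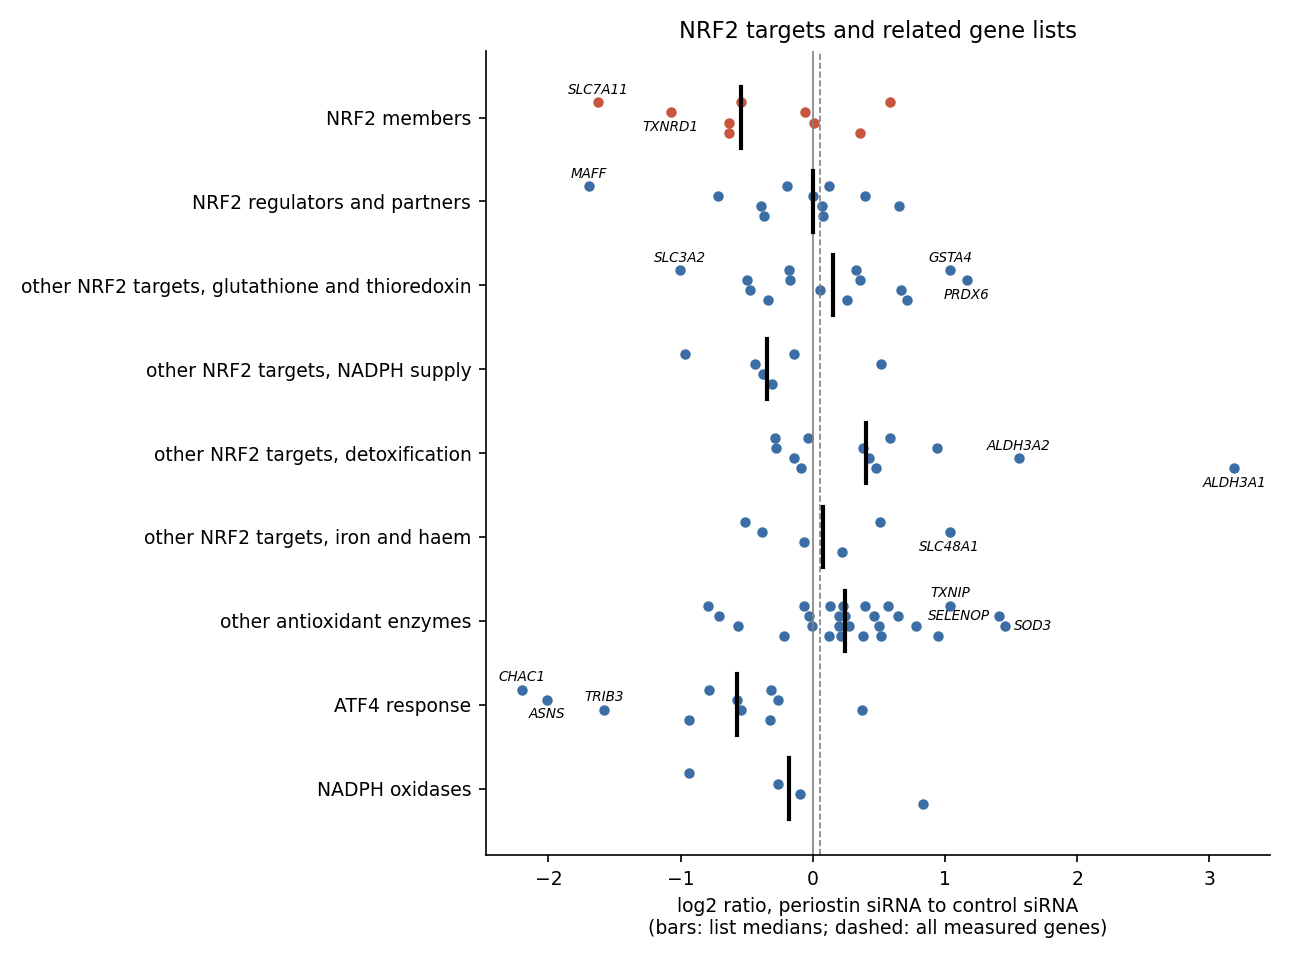
Log2 ratio (periostin over control siRNA) for each measured gene (points) of the NRF2 targets and of 8 related lists, with list medians as bars and names for genes past 2-fold. The medians of the 9 NRF2 targets at -0.54 and of the ATF4 response at -0.57 are the lowest, and that of the detoxification enzymes at 0.40 is the highest.

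Antioxidant enzymes and related genes that are not classed here as NRF2 targets had a median of 0.25. The related genes, such as TXNIP, are not all antioxidant enzymes. Of these 27 genes 20 were above 0, compared with 8745 of all 16052 genes. More than 2-fold higher were SOD3, extracellular superoxide dismutase, at 1.46, SELENOP, a selenium carrier, at 1.41 ± 0.07 (SD over 10 spots) and TXNIP, an inhibitor of thioredoxin, at 1.04, while 0 were lower by this much. Of all genes, 7.97% were higher and 6.42% lower by more than 2-fold. TXNIP fell short of 2-fold under scaling on the median. Paralogs of 3 members were among these genes. TXNRD2, the mitochondrial thioredoxin reductase, gave 0.78 from dim signals of 89.0 and 153, and TXNRD3 gave 0.20, compared with -1.08 for TXNRD1. HMOX2, the constitutive haem oxygenase, gave -0.07, compared with -0.64 for HMOX1, and OSGIN2 gave -0.21 from a signal of 84.5, compared with -0.63 for OSGIN1. Each of these paralog values carries a spot error of 0.20 or 0.21.

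Of 9 genes of the NADPH oxidases, which make superoxide, 5 were below background on both arrays. None of the other 4 was past 2-fold, where 7.97% of all genes were higher and 6.42% lower by this much. NOX4, the isoform best known from lung myofibroblasts, was at 28.6 and 51.0, a log2 ratio of 0.83 with an error of 0.23. At these dim signals the ratio depended on the settings, from 0.24 to 0.88.

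SLC7A11 is also a target of ATF4, the transcription factor of the amino acid response, and 11 genes of that response were listed beside it. Their median log2 ratio was -0.57, and 10 of 11 were below 0, compared with 45.5% of all genes. More than 2-fold, 3 were lower and 0 were higher, compared with 6.42% and 7.97% of all genes. Whether ATF4 had a part in the lower signal of SLC7A11 was not tested. CHAC1, which degrades glutathione, was at 11425 with control siRNA and at 2481 after knockdown, with a log2 ratio of -2.20 for either of its probes. ASNS, asparagine synthetase, was at 23348 and 5787, with a log2 ratio of -2.01, and TRIB3, a pseudokinase that restrains ATF4, was at 15818 and 5303, with -1.58. ATF4 itself gave -0.32, and SESN2, at 0.37, was the only gene of this list above 0. Each of these values is from 1 spot with an error of 0.20.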

How the data were processed

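Total RNA of MRC-5 cells treated with either siRNA was hybridized to 1 array each. The authors deposited the scanner output, whose intensity values were processed (background removed, spatial trend corrected) with Feature Extraction (version 11.5.1.1 per the file headers, 12.0.3.1 per the submitters' processing notes) on a design annotated to hg19, together with normalized intensities, equal to the scanner intensity times 3.65 (control siRNA) and 3.54 (periostin siRNA) over 49697 probes. Here each processed signal was taken as log2 and centred on its array's 75th percentile over 58717 spots, control spots left out. Spots of 1 probe were averaged, and the brightest probe stood for a gene. Probes were named through RefSeq accessions (GRCh38.p14), which matched 65.1% of the spots. A ratio was a bound where 1 array alone was well above background, and none was given where neither was. The signal was well above background for 58.0% and 58.9% of the spots. Precision is limited by having 1 array for each siRNA, and no difference has a replicate check.

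Genes named are the 9 members, POSTN, the measured regulators, the paralogs, and in the other lists those past 2-fold or, where there were none, those of largest rise and fall; further genes were named after their values were seen. Some genes that this rule names are not reported here. The members and lists were chosen with earlier results of these data known. The scaling and the 3-fold calls were tested on simulated data with changes put only into bright genes. Ratios of dim genes and calls against background were not covered. Alternatives were the normexp correction with an offset of 50, no scaling, scaling on the median or on the spots well above background, quantile normalization, loess with a span of 0.3, the authors' table, the mean over probes, filters on dim and on outlier spots, and thresholds of 2-fold and 4-fold. Python 3.11.15, numpy 2.4.6, pandas 2.3.3, statsmodels 0.14.6, R 4.3.3 and limma 3.58.1 were used.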

Additional observations from a re-analysis of the deposited data

How the results depend on the processing

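No paired analysis was possible because the siRNAs, with 1 array each, cannot be paired over replicates, and leaving out a replicate could not be done either. The median of the 9 NRF2 targets stayed between -0.67 and -0.46 over the 10 settings, and 8 of the 9 genes kept their sign in each of them, NQO1 being the exception. Not all settings could change these genes. Their spots passed the filters on dim and on outlier spots, and the mean over probes could alter AKR1C1 alone. The authors' table, no scaling and scaling on the median or on the spots well above background shift all genes of an array by the same amount. The number of targets lower by more than 3-fold was 1, and it was 0 without scaling, 2 at a 2-fold and 0 at a 4-fold threshold. No target was higher by more than 3-fold under any setting, nor at the 2-fold or 4-fold threshold. POSTN was at -2.99 under the normexp correction. With the arrays scaled on their medians, the all-gene median moved by -0.13 and HMOX1 was at -0.77. Over all genes, the normexp correction left 143 higher and 192 lower by more than 3-fold, compared with 541 and 441, so that 42.7% of these calls were higher ones, compared with 55.1%. With the arrays scaled on their medians these counts were 453 and 525, or 46.3% higher ones. The median of the regulators changed sign under 4 settings and that of the iron and haem genes under 1.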
